A study of Homo sapiens with 6 samples.

Results

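J82 is an established human bladder cancer cell line. The libraries described here came from J82 tet-ZFP36L1 cells, which carry a doxycycline-inducible ZFP36L1 construct, at 6 h and at 24 h of doxycycline, and from J82 tet-control cells at the same 2 times. These 4 of the 6 libraries of the series formed the comparison, with 2 libraries on each side paired by time. The other 2, from tet-ZFP36L1 and tet-control cells that received no doxycycline (0 h), served to sort the genes. All 4 compared libraries had doxycycline, so the drug itself is common to both sides. The protocol names 1 µg/mL beside the words "without doxycycline", and this was taken as the dose of the treated cultures. The labels give 1 library for each line and time. They do not say whether a line is a clone or a pool, what the control construct encodes, or whether the cultures of a line were separate. A p-value therefore measures only how the line difference varied between 6 and 24 h, largely as pooled over genes. The line and its culture cannot be told apart.

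Bulk RNA was counted per transcript and summed per gene, and 11920 of 52992 matched genes had a mean of at least 50 counts over the 4 libraries. Levels are given as CPM, counts per 1000000 counts scaled by TMM, and line differences as log2(CPM + 0.5) of tet-ZFP36L1 minus log2(CPM + 0.5) of tet-control, a scale that understates differences of low genes. A gene was counted as apart when this difference was at least 1, which is 2-fold, in the same direction at 6 h and at 24 h. It was then placed by the 0 h libraries: already 2-fold apart the same way, within 2-fold, or 2-fold apart the opposite way. In all, 926 genes were apart, and they were sorted by libraries that took no part in choosing them.

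ZFP36L1 belongs to the ZFP36 family of zinc finger proteins, which includes ZFP36 (tristetraprolin) and ZFP36L2. These proteins bind AU-rich elements in the 3' UTRs of short-lived mRNAs and bring the CCR4-NOT deadenylase and the decapping machinery to them. Known targets of the family code for cytokines, growth factors, proteases and cell cycle regulators. The core of the preferred site is UAUUUAU in RNA, written TATTTAT in the DNA of the annotated strand.

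Of the protein-coding genes that stood lowest in tet-ZFP36L1 under doxycycline while being within 2-fold at 0 h, 11 are described. Of these, 7 have this core in the 3' UTR of their most abundant annotated transcript, against 27.8% of all genes searched. The core is not particular to them: it is in 4 of the 7 leading genes already lower at 0 h. Among the leading higher genes it is in 4 of 11 within 2-fold at 0 h and in 2 of 8 already higher, whose sites are not shown. The first such site, in order from the stop codon, is shown for each of these 7 leading lower genes. They were not yet 2-fold lower at 0 h, but all 7 were on the lower side there, at -0.91 (HBEGF) to -0.47 (MMP1). Capitals mark the 7-base core, with 10 bases on each side, read 5' to 3' on the transcribed strand of GRCh38 (GENCODE 29 annotation).
PLAU (chr10:73917409-73917435, plus strand): gtacactgaaTATTTATatttcactat
FGFRL1 (chr4:1026629-1026655, plus strand): ggggccttggTATTTATatttaagaaa
HBEGF (chr5:140333679-140333705, minus strand): ttaaattataTATTTATtttattctat
SLC4A7 (chr3:27376532-27376558, minus strand): actattcaaaTATTTATtctgttagaa
MMP1 (chr11:102790274-102790300, minus strand): aatataatctTATTTATacctcagttt
MICB (chr6:31509999-31510025, plus strand): taacatcactTATTTATtgttgttgga
SLCO4A1 (chr20:62672085-62672111, plus strand): cataaatataTATTTATggacacacag
The 3' UTR of SLC4A7 holds 8 copies of the core in 4041 bases, those of PLAU and HBEGF hold 2 each, and the other 4 hold 1. MAP3K14, CLDN1 and COX17 have no copy in this window, and the most abundant transcript of ST3GAL4, the remaining gene of the 11, has no annotated 3' UTR to search.

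Further sites are shown for genes whose order between the lines turned round, or whose 2-fold gap at 0 h was gone under doxycycline. PHLDA2 and HPCAL1 were 2-fold higher in tet-ZFP36L1 at 0 h and 2-fold lower under doxycycline, and the family member ZFP36L2 was on the higher side at 0 h and 2-fold lower under doxycycline. EREG, CXCL1 and MAP1B were 2-fold higher at 0 h only. EREG at 6 h and MAP1B at 6 and 24 h still lay slightly above tet-control. SLC2A1 and RPGR, also 2-fold higher at 0 h only, have 1 copy of the core each, which is not shown.
PHLDA2 (chr11:2928511-2928537, minus strand): aatatctatgTATTTATttcgctggtt
HPCAL1 (chr2:10427437-10427463, plus strand): tgttgtgtggTATTTATgctctctttg
ZFP36L2 (chr2:43223449-43223475, minus strand): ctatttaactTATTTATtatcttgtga
EREG (chr4:74384872-74384898, plus strand): ttattaataaTATTTATgttgggtcaa
CXCL1 (chr4:73870671-73870697, plus strand): agaagtcttcTATTTATttatttattc
MAP1B (chr5:72206776-72206802, plus strand): gcagtaatgaTATTTATtaaaaaccca
In CXCL1 the site runs on into overlapping ATTTA repeats, and its 3' UTR holds 4 copies of the core in 706 bases. A match is a stretch of letters in the annotation and does not show that a protein binds there.

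The libraries had 20739025 to 21380480 estimated counts each. The 24 h library of tet-ZFP36L1 was unlike the others, with 15695 genes at 10 or more counts, against 14515 to 14956 in the other 5, and a TMM factor of 1.11, against 0.941 to 1.01. Its part in the 24 h value of a gene was not tested, so 6 h values are given beside the 24 h values. A line fit without this library is among the settings at the end. Of 11 epithelial markers 7 reached 1 CPM in any library: over the 6 libraries KRT8 was at 258.4 to 753.1 CPM and KRT18 at 363.8 to 763.8 CPM, while CDH1 stayed at or below 0.749 CPM, KRT19 at or below 0.259 CPM and GRHL2 at 0. The mesenchymal marker VIM was at 722.4 to 1488 CPM. Of 13 urothelial markers 3 reached 1 CPM in any library, FOXA1 at 8.19 to 18.7 CPM, PPARG at 1.14 to 16.6 CPM and GATA3 at 1.28 CPM at most. UPK2, UPK3A and KRT14 of this list were at 0 in all 6. Of 9 immune markers, 2 reached 1 CPM in any library and PTPRC stayed at or below 0.161 CPM, while 0 of 6 endothelial markers reached 1 CPM. In tet-ZFP36L1 under doxycycline 7 mesenchymal markers summed to 3615 and 13688 CPM at lowest and highest, against 1382 to 1655 CPM in tet-control. FN1 was most of this sum in tet-ZFP36L1 but not in tet-control. CDH2, SNAI2 and SPARC were also higher in tet-ZFP36L1 at both times, while TWIST1 was at 0 in all 6 libraries. ZEB1 was lower, at 27.3 and 21.2 CPM at 6 and 24 h, against 36.1 and 28.95 CPM in tet-control. VIM was higher at 6 h, at 1488 against 799.9 CPM, and lower at 24 h, at 787.4 against 877.2 CPM. Of 8 fibroblast markers 4 reached 1 CPM in any library, COL1A1 at 7.54 to 19.08 CPM. In bulk RNA, a change in the share of cells of a kind and a change in RNA per cell cannot be told apart.

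Under doxycycline 451 genes were at least 2-fold lower in tet-ZFP36L1 at both times, 3.78% of those measured, and 475 were at least 2-fold higher, 3.98%. This balance depends on scaling: without TMM factors, 340 were lower and 537 higher, and in TPM as deposited 308 and 485. The directions differed at 0 h. Of the 451 lower genes, 138 (30.6%) were already 2-fold lower in tet-ZFP36L1 at 0 h, 307 (68.1%) were within 2-fold and 6 were 2-fold higher there. Of the 475 higher genes, 337 (70.9%) were already 2-fold higher at 0 h, 136 (28.6%) were within 2-fold and 2 were 2-fold lower. Over all measured genes, 2.76% were 2-fold lower and 4.9% were 2-fold higher at 0 h. Most of the higher genes therefore had the difference before doxycycline, and most of the lower genes did not have it in full.

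Even the genes within 2-fold at 0 h leaned the same way there: 249 of 307 lower genes had a 0 h difference below 0, and 122 of 136 higher genes had one above 0. Their median differences at 0, 6 and 24 h were -0.33, -1.27 and -1.38 for the lower genes and 0.59, 1.34 and 1.65 for the higher genes. The genes already apart had medians of -1.64, -1.88 and -1.74 when lower and 2.09, 1.88 and 2.32 when higher. Over all measured genes the medians were -0.0029, -0.012 and -0.045. The genes already apart were required to be 2-fold apart at all 3 times, so their medians say nothing of stability. Within tet-ZFP36L1 itself they had moved by a median of -0.33 and -0.26 from 0 h to 6 and 24 h when lower, and by -0.17 and 0.18 when higher. For the lower genes within 2-fold at 0 h the line's own median change was -0.93 and -1.12, against 0.095 and 0.0064 in tet-control. Of these 307 genes, 106 were 2-fold below their own 0 h level at both times in tet-ZFP36L1. In 137 the line difference was 2-fold beyond that at 0 h at both times.

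**Figure D1:**
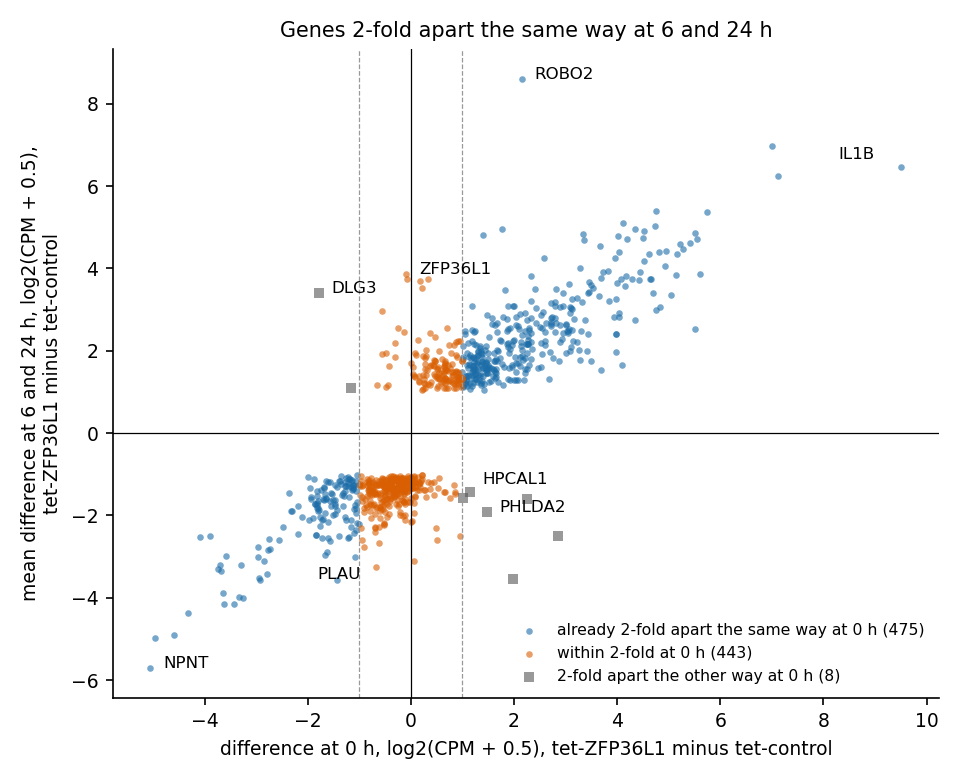
Line difference at 0 h (x axis) against the mean line difference at 6 and 24 h (y axis), both as log2(CPM + 0.5) in tet-ZFP36L1 minus tet-control, for the 926 genes apart at both doxycycline times. Points are genes, coloured by their 0 h class, and dashed lines mark 2-fold at 0 h; most points above 0 lie right of the dashed line, and most points below 0 lie between the lines.

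The counts near the thresholds show how much the sorting rests on the exact value. The smaller of the 2 doxycycline differences lay between 1.0 and 1.1 for 115 lower and 57 higher genes, and between 0.9 and 1.0, just outside, for 125 and 92. At 0 h, 12 lower and 19 higher genes lay between 1.0 and 1.1 and 14 and 20 between 0.9 and 1.0. With the 0 h threshold at 1.5-fold, a setting added after seeing the data, 48.1% of the lower and 85.3% of the higher genes counted as already apart.

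A fit across all genes asked the same question without a fold threshold. With edgeR's quasi-likelihood test, with time as pairs and line tested, 1757 genes were lower in tet-ZFP36L1 at an adjusted p below 0.05 (14.7% of those tested) and 1358 were higher (11.4%). All 926 genes above passed it, which carries no information because the same 4 libraries chose them. Of the 1757 lower genes 225 (12.8%) were 2-fold lower at 0 h, and of the 1358 higher genes 437 (32.2%) were 2-fold higher. The split depends on scaling: with plain library totals 1149 were lower and 1430 higher. The fit has 1 residual degree of freedom and takes the spread from the difference between the 2 times, moderated over all genes. Without its time term, when changes shared by both lines enter the spread, 743 and 506 remained past the threshold.

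A second fit over all 6 libraries tested whether the line difference under doxycycline departed from that at 0 h. This induction term was past an adjusted p of 0.05 in edgeR's test for 52 genes on the lower side (0.436%) and 23 on the higher side (0.193%), with 923 and 256 at an unadjusted p below 0.05. It rests on 1 library per line at 0 h. In simulated counts of this design it recovered 74 of 96 genes planted at 4-fold and 7 of 104 planted at 2-fold, so most 2-fold departures would be missed. Of the 52, 31 were also 2-fold lower at both times, and 24 of these were within 2-fold at 0 h. Of the 23, 14 were 2-fold higher at both times, 12 of them within 2-fold at 0 h. At 0 h, 21 of the 52 had been 2-fold higher and 9 of the 23 had been 2-fold lower. Such calls can come from an extreme value in the single pair of 0 h libraries. With plain library totals the counts were 2 and 11.

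In tet-ZFP36L1 the induced gene itself, ZFP36L1, was at 220.2, 3127 and 3133 CPM after 0, 6 and 24 h, against 233.8, 223.3 and 206.0 CPM in tet-control. The 0 h difference was -0.09 (95% interval -0.14 to -0.03, from counting error only, as for all intervals here) and the doxycycline differences were 3.80 (3.76 to 3.85) and 3.92 (3.88 to 3.97). The transcript ENST00000336440, of 3026 bases, carried 60.1% of the excess at 6 h, as kallisto divided the reads. The relative ZFP36 was measured at 9.28 and 6.64 CPM in tet-ZFP36L1 at 6 and 24 h, against 9.31 and 10.7 CPM in tet-control, and was not 2-fold apart at any time. ZFP36L2 was at 62.3, 12.8 and 15.8 CPM in tet-ZFP36L1 at 0, 6 and 24 h, against 34.3, 44.7 and 36.6 CPM in tet-control. Its difference was 0.85 at 0 h, -1.77 at 6 h and -1.19 at 24 h, so the 2 doxycycline libraries of tet-ZFP36L1 lay below every tet-control library while the 0 h library lay above them.

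Of the leading genes among the 307 lower ones within 2-fold at 0 h, 3 encode secreted or shed proteins. PLAU, the urokinase-type plasminogen activator (chr10:73909177-73917497), had levels of 364.5, 36.03 and 53.96 CPM in tet-ZFP36L1 (0, 6 and 24 h), against 585.5, 416.2 and 429.6 CPM in tet-control. Its difference of -0.68 at 0 h became -3.51 (-3.62 to -3.40) at 6 h and -2.98 (-3.07 to -2.89) at 24 h. HBEGF, a ligand of the EGF receptor, was at 33.6, 20.7 and 15.6 CPM in tet-ZFP36L1, against 63.6, 227.8 and 69.6 CPM in tet-control. Its 6 h difference of -3.43 thus included a level in tet-control that was higher at 6 h than at 0 h. MMP1, interstitial collagenase, was at 2.01, 1.40 and 0.595 CPM in tet-ZFP36L1, against 2.98, 7.06 and 4.15 CPM in tet-control.

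Another 3 encode a junction protein, a receptor relative and a surface ligand. CLDN1, a tight junction protein (chr3:190305701-190322475), was at 536.9, 196.8 and 169.1 CPM in tet-ZFP36L1, against 1039, 1150 and 1079 CPM in tet-control, with differences of -0.95, -2.54 and -2.67. It lay just inside the 2-fold limit at 0 h, so part of its gap was there before doxycycline. FGFRL1, an FGF receptor relative that lacks the kinase domain, was at 39.4, 10.1 and 12.2 CPM in tet-ZFP36L1, against 64.2, 51.1 and 61.7 CPM in tet-control. MICB, a stress-induced ligand of the NKG2D receptor of natural killer cells, was at 58.6, 18.0 and 15.4 CPM in tet-ZFP36L1, against 84.3, 72.7 and 85.0 CPM in tet-control. For these 3 genes the 6 and 24 h levels of tet-ZFP36L1 lay below all other libraries.

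Signalling, transport and metabolic genes made up the rest of the 11. MAP3K14, the NF-kB-inducing kinase NIK, was at 2.80, 0.363 and 0.732 CPM in tet-ZFP36L1, against 2.68, 5.24 and 13.2 CPM in tet-control. Under doxycycline these are 7 and 16 counts for tet-ZFP36L1, against 98 and 260 for tet-control, and the tet-control levels were higher under doxycycline than at 0 h. SLC4A7, a sodium bicarbonate cotransporter, was at 160.3, 61.95 and 38.9 CPM in tet-ZFP36L1, against 230.8, 258.8 and 209.8 CPM in tet-control. The sialyltransferase ST3GAL4, the organic anion transporter SLCO4A1 and the copper chaperone COX17 had differences of -0.60, -0.78 and -0.21 at 0 h, -2.03, -1.94 and -1.91 at 6 h and -2.10, -2.20 and -2.06 at 24 h. SLCO4A1 was lower at 6 h than at 0 h in both lines, at 561.8, 139.2 and 167.0 CPM in tet-ZFP36L1, against 962.1, 534.6 and 767.9 CPM in tet-control.

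**Figure D2:**
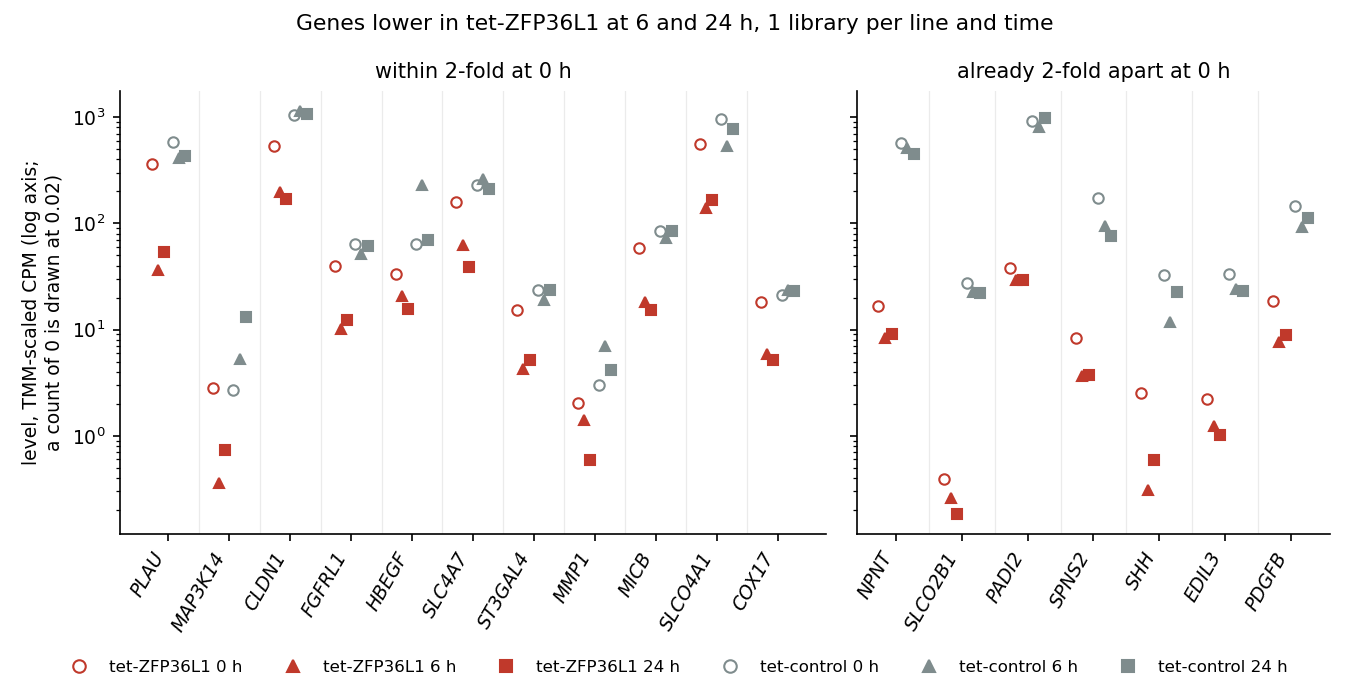
Level of each leading lower gene in each of the 6 libraries, as TMM-scaled CPM on a log axis, with tet-ZFP36L1 in red left of tet-control in grey, and open circles, triangles and squares for 0, 6 and 24 h. On the left, open circles of the lines lie close together and filled red symbols lie below them; on the right, all 3 red symbols lie below the grey ones.

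The 138 genes already lower at 0 h were lower at all 3 times by the sorting itself, and their values are a description. NPNT, nephronectin, an extracellular matrix ligand of integrins (chr4:105894775-106004027), was at 16.8, 8.40 and 9.06 CPM in tet-ZFP36L1, against 572.0, 514.3 and 454.1 CPM in tet-control. The differences were -5.05 at 0 h, -5.85 at 6 h and -5.57 at 24 h. PADI2, which converts arginine to citrulline in proteins, was at 37.6, 29.3 and 28.97 CPM in tet-ZFP36L1, against 913.8, 805.9 and 987.5 CPM in tet-control. SLCO2B1, another organic anion transporter, stayed at or below 0.393 CPM in tet-ZFP36L1, against 21.9 to 27.4 CPM in tet-control. SPNS2, an exporter of sphingosine 1-phosphate, had differences of -4.32, -4.53 and -4.20.

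Ligands were in this group too. PDGFB, a platelet-derived growth factor chain, was at 18.7, 7.57 and 8.83 CPM in tet-ZFP36L1, against 145.3, 92.4 and 111.5 CPM in tet-control. SHH, the Sonic hedgehog ligand, was at 2.55, 0.311 and 0.595 CPM in tet-ZFP36L1, against 32.6, 11.8 and 22.7 CPM in tet-control. EDIL3, an integrin-binding matrix protein, had differences of -3.64, -3.81 and -3.97. GDF15, a stress-induced cytokine of the TGF-beta family, is 1 of 2 members of this class past the threshold of the induction term: it was at 18.4, 0.881 and 2.15 CPM in tet-ZFP36L1, against 39.7, 8.72 and 24.9 CPM in tet-control, with differences of -1.09, -2.74 and -3.26.

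Of the 6 lower genes that were 2-fold higher in tet-ZFP36L1 at 0 h, PHLDA2 and HPCAL1 are described. PHLDA2, an imprinted pleckstrin homology domain protein, was at 30.8, 6.48 and 3.20 CPM in tet-ZFP36L1, against 10.8, 22.7 and 15.4 CPM in tet-control. Its differences were 1.47 (1.25 to 1.68), -1.74 (-2.01 to -1.46) and -2.10 (-2.43 to -1.77). HPCAL1, a neuronal calcium sensor, was at 177.0, 24.6 and 24.9 CPM in tet-ZFP36L1, against 79.97, 69.7 and 65.4 CPM in tet-control. The lines changed places in both genes between 0 h and 6 h, with the tet-control levels of HPCAL1 close together.

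Of the 136 higher genes within 2-fold at 0 h, ZFP36L1 (above) and 10 others among the leading ones are described. KDM4A, a histone H3 lysine demethylase (chr1:43650158-43705515), was at 86.3, 1208 and 919.4 CPM in tet-ZFP36L1, against 75.8, 83.8 and 76.8 CPM in tet-control. The differences were 0.19, 3.84 and 3.57, and the tet-control levels were nearly level over time. GLE1, which works in export of mRNA from the nucleus, stood at 44.6, 587.1 and 519.9 CPM in tet-ZFP36L1, against 66.3, 65.8 and 75.8 CPM in tet-control. MAST2, a serine/threonine kinase, was at 88.6, 638.2 and 583.7 CPM in tet-ZFP36L1, against 105.3, 106.3 and 100.1 CPM in tet-control. KDM3B, a further histone demethylase, was at 102.2, 601.5 and 526.2 CPM in tet-ZFP36L1, against 112.2, 102.1 and 100.5 CPM in tet-control.

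KNL1, a scaffold of the kinetochore, was at 87.3, 596.2 and 491.5 CPM in tet-ZFP36L1, against 107.6, 119.1 and 119.1 CPM in tet-control. STK4, the Hippo pathway kinase MST1, was at 122.4, 801.7 and 572.4 CPM in tet-ZFP36L1, against 171.7, 199.4 and 153.9 CPM in tet-control. For these 6 genes the 6 and 24 h levels of tet-ZFP36L1 lay far above the other 4 libraries, and the 6 h level was the higher of the 2. A single annotated transcript carried 100% of the 6 h excess of KDM4A, 99.4% of that of GLE1 and 84.1% of that of MAST2, and the leading one carried 49.7% for KDM3B, 55.3% for KNL1 and 64.7% for STK4. DPYD, the first enzyme of pyrimidine breakdown, was instead higher at 24 h than at 6 h, at 30.2, 112.9 and 156.8 CPM in tet-ZFP36L1, against 23.4, 25.6 and 23.1 CPM in tet-control.

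The other 3 genes described here had lower levels. The histone demethylase KDM7A was at 5.45, 19.2 and 12.95 CPM in tet-ZFP36L1, against 4.91, 3.64 and 2.28 CPM in tet-control. DSEL, an epimerase-like protein, was at 11.3, 24.2 and 27.2 CPM in tet-ZFP36L1, against 6.60, 5.24 and 5.57 CPM in tet-control. FAM156B was at 5.30, 12.3 and 8.83 CPM in tet-ZFP36L1, against 4.52, 1.12 and 0.0506 CPM in tet-control, where the 24 h value is 1 count. No fold is given for it.

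**Figure D3:**
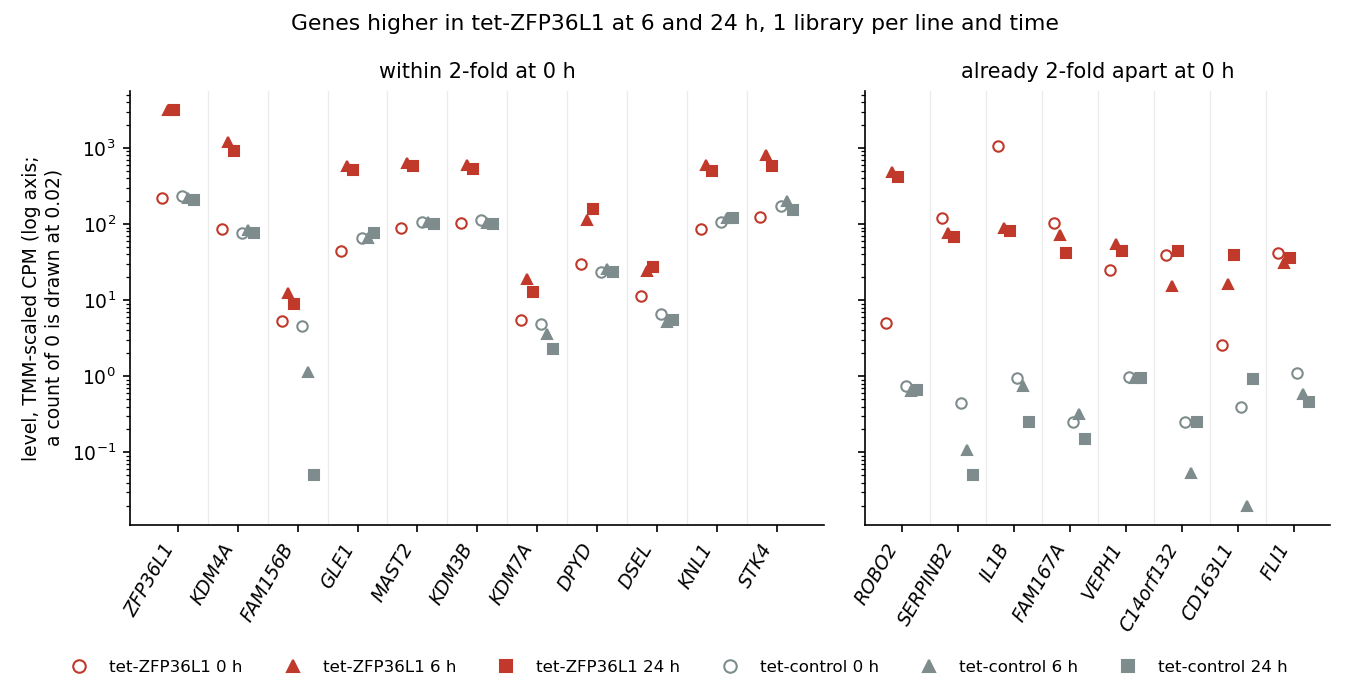
Level of each leading higher gene in each of the 6 libraries, as TMM-scaled CPM on a log axis, with tet-ZFP36L1 in red left of tet-control in grey, and open circles, triangles and squares for 0, 6 and 24 h. On the left, the filled red symbols of KDM4A, GLE1, MAST2, KDM3B, KNL1 and STK4 stand above their open circle; on the right, only ROBO2 and CD163L1 show a red open circle far below the filled ones.

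The 337 genes already higher at 0 h included secreted, inflammatory and transcription factor genes that tet-control hardly expressed. IL1B, the cytokine interleukin 1 beta, was at 1052, 87.8 and 81.9 CPM in tet-ZFP36L1, against 0.943, 0.749 and 0.253 CPM in tet-control. It remained far above tet-control under doxycycline, with differences of 6.14 and 6.77, although these were smaller than the 9.51 at 0 h. SERPINB2, the plasminogen activator inhibitor PAI-2, was at 120.4, 77.0 and 67.8 CPM in tet-ZFP36L1, against 0.447, 0.107 and 0.0506 CPM in tet-control, the last 2 being 2 counts and 1 count. FLI1, an ETS family transcription factor, was at 41.9, 30.4 and 35.3 CPM in tet-ZFP36L1, against 1.09, 0.589 and 0.456 CPM in tet-control. FAM167A, VEPH1 and C14orf132 had differences of 7.12, 4.11 and 5.74 at 0 h and of 6.46, 5.25 and 4.84 at 6 h and 6.03, 4.95 and 5.89 at 24 h.

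ROBO2 and CD163L1 had much of their gap under doxycycline only. ROBO2, an axon guidance receptor (chr3:75906695-77649964), was at 5.06, 484.4 and 414.7 CPM in tet-ZFP36L1, against 0.745, 0.642 and 0.658 CPM in tet-control, which are 15, 12 and 13 counts. Its differences were 2.16 (1.65 to 2.66), 8.73 (8.27 to 9.19) and 8.49 (8.04 to 8.93). CD163L1, a scavenger receptor family member, was at 2.55, 16.3 and 39.7 CPM in tet-ZFP36L1, against 0.397, 0 and 0.911 CPM in tet-control. The scaffold protein DLG3 had been 2-fold lower at 0 h and was 2-fold higher under doxycycline: it was at 13.5, 351.0 and 255.3 CPM in tet-ZFP36L1, against 47.2, 19.6 and 39.7 CPM in tet-control.

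Seen from 0 h, 329 genes were 2-fold lower and 584 were 2-fold higher in tet-ZFP36L1 before doxycycline. Of the 329, 138 (41.9%) were still 2-fold lower at both later times, 87 were 2-fold apart at neither time and 2 were 2-fold higher at both. Of the 584, 337 (57.7%) were still 2-fold higher at both, 116 were apart at neither and 6 were 2-fold lower at both. These shares are descriptions, since a gene picked for an extreme value in 1 pair of libraries will tend to be less extreme in the next.

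EREG, an EGF receptor ligand, was at 32.2, 8.14 and 4.39 CPM in tet-ZFP36L1, against 7.69, 6.63 and 6.73 CPM in tet-control. Its 0 h difference of 2.00 was 0.28 at 6 h and -0.56 at 24 h. CXCL1, a neutrophil chemokine, was at 1174, 300.2 and 321.4 CPM in tet-ZFP36L1, against 326.0, 349.0 and 364.5 CPM in tet-control. SLC2A1, the glucose transporter GLUT1, was at 230.6, 82.7 and 61.2 CPM in tet-ZFP36L1, against 70.7, 87.7 and 79.2 CPM in tet-control. MAP1B, a microtubule-associated protein, was at 185.3, 85.6 and 68.7 CPM in tet-ZFP36L1, against 55.9, 82.1 and 56.6 CPM in tet-control. In these 4 genes the tet-ZFP36L1 library at 0 h was the highest of the 6, and MAP1B in tet-control was also higher at 6 h than at 0 and 24 h. A comparison of the lines under doxycycline alone does not show them. RPGR, a ciliary protein at 5.99, 4.77 and 5.26 CPM in tet-ZFP36L1, against 1.29, 3.69 and 4.15 CPM in tet-control, differed in that its tet-control level was lowest at 0 h.

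The genes that were low at 0 h only had the other pattern. IARS2, the mitochondrial isoleucyl-tRNA synthetase, was at 5.30, 25.7 and 27.6 CPM in tet-ZFP36L1, against 30.98, 20.7 and 33.7 CPM in tet-control. ZNF275, a zinc finger gene, was at 0.344, 12.5 and 4.71 CPM in tet-ZFP36L1, against 12.5, 16.5 and 4.10 CPM in tet-control. PHLPP1, a phosphatase of the kinase AKT, was at 2.995, 11.6 and 18.4 CPM in tet-ZFP36L1, against 14.9, 17.02 and 14.7 CPM in tet-control. THUMPD1, an adaptor of tRNA acetylation, was instead high in tet-control at 0 h: it was at 10.4, 10.9 and 10.4 CPM in tet-ZFP36L1, against 49.8, 14.6 and 14.5 CPM in tet-control. For IARS2, ZNF275 and PHLPP1 the tet-ZFP36L1 library at 0 h was the lowest of the 6. Their signs under doxycycline are near 0 and turn with the deposited TPM, with plain CPM or with both.

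The share of genes with the AU-rich core differed between the 0 h classes, and the sorting used no sequence. Among genes with an annotated 3' UTR of at least 50 bases, TATTTAT on the sense strand was found in 160 of 282 (56.7%) lower genes within 2-fold at 0 h and in 42 of 132 (31.8%) lower genes already lower at 0 h. It was found in 22 of 121 (18.2%) higher genes within 2-fold at 0 h, in 108 of 320 (33.8%) already higher and in 2954 of 10637 (27.8%) of all genes. Over all 3' UTR lengths the already-lower class thus lay somewhat above the share of all genes. The lower class that was within 2-fold at 0 h lay well above it. At least 2 copies, overlapping ones included, were in 29.4% of the lower genes within 2-fold at 0 h, 15.2% of those already lower and 10.4% of all genes. Among the genes lower by the induction term, 32 of 47 (68.1%) had the core, and among those higher 6 of 21 (28.6%). These sets include genes, such as CXCL1 and IARS2, that were 2-fold apart the opposite way at 0 h and close to tet-control under doxycycline.

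Length and base composition moved with these classes. The median 3' UTR was 1344 bases for the lower genes within 2-fold at 0 h, 1013 for those already lower and 867 for all genes, and the median GC content was 38.8%, 43.1% and 42.6%. Within 3' UTRs of 1000 to 3000 bases the core was in 65.8%, 48.1% and 36.9% of these groups, and in 13.7% and 38.5% of the higher genes within 2-fold and already higher at 0 h. The class order of the lower genes was thus the same within this length range, while the part of base composition was not tested. In this range the already-lower class, with the core in 26 of 54 genes, also lay above the share of all genes. With the longest annotated 3' UTR of each gene the shares were 66.8%, 37.6% and 36.1%.

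**Figure D4:**
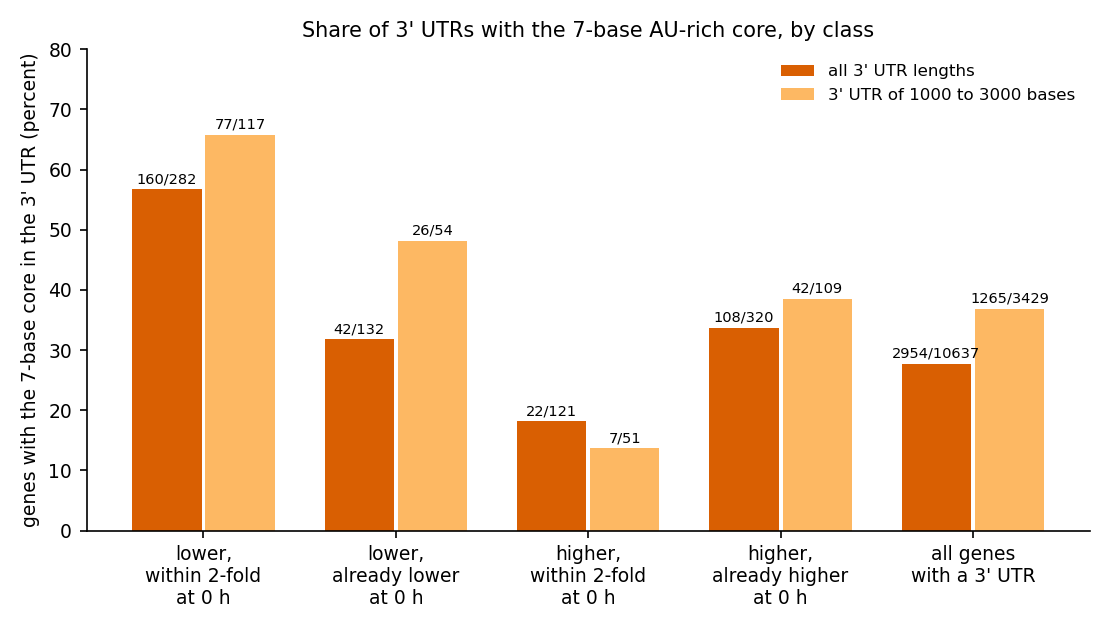
Percent of genes with the 7-base AU-rich core in the annotated 3' UTR (y axis, from 0) for the 4 classes and for all genes with a 3' UTR, over all lengths (dark bars) and for 3' UTRs of 1000 to 3000 bases (light bars). Numbers give genes with the core over genes searched; the lower genes within 2-fold at 0 h have the tallest bars, at 56.7% and 65.8%.

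The genes already lower at 0 h were also spread unevenly over the chromosomes. Chromosome 16 held 22 of the 138 lower genes that were already lower at 0 h, 3.77% of its 583 measured genes, against 0% to 2.33% on each other chromosome. It also held 19 of the 307 lower genes within 2-fold at 0 h, 3.26%, against 1.28% to 5.56% on each other chromosome. Measured genes were put in 226 windows of 50 neighbours. The first window of chromosome 16 (chr16:14381-1840207) had a median line difference of -1.08 at 0 h, -0.92 at 6 h and -0.94 at 24 h, and 47, 47 and 40 of its 50 genes were below 0. It held 14 of the 138 and 2 of the 307. The next window had medians of -0.70, -0.73 and -0.66. That window held 1 of the 138 and 7 of the 307, TNFRSF12A among them, so lower genes of this stretch were in both classes. Among the 215 windows on the other chromosomes the lowest medians were -0.41, -0.52 and -0.48. The lowest of these at 0 h, chr4:53285-6623362, held 1 of the 138 and 4 of the 307, FGFRL1 and SLBP among the latter.

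Levels in 3 genes of the first chromosome 16 window, chosen after their values were seen, are given here. TELO2, a partner of PI3K-like kinases, was at 24.1, 31.4 and 27.7 CPM in tet-ZFP36L1, against 67.7, 74.9 and 68.1 CPM in tet-control. STUB1, the ubiquitin ligase CHIP, was at 52.1, 46.6 and 43.3 CPM in tet-ZFP36L1, against 122.6, 98.2 and 123.5 CPM in tet-control. RHOT2, a mitochondrial GTPase, was at 50.1, 67.3 and 54.4 CPM in tet-ZFP36L1, against 117.8, 141.8 and 114.0 CPM in tet-control. DNA copy number was not measured in these files. Leaving out chromosome 16, a setting added after seeing the data, left 410 lower genes, 28.3% of them already lower at 0 h.

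**Figure D5:**
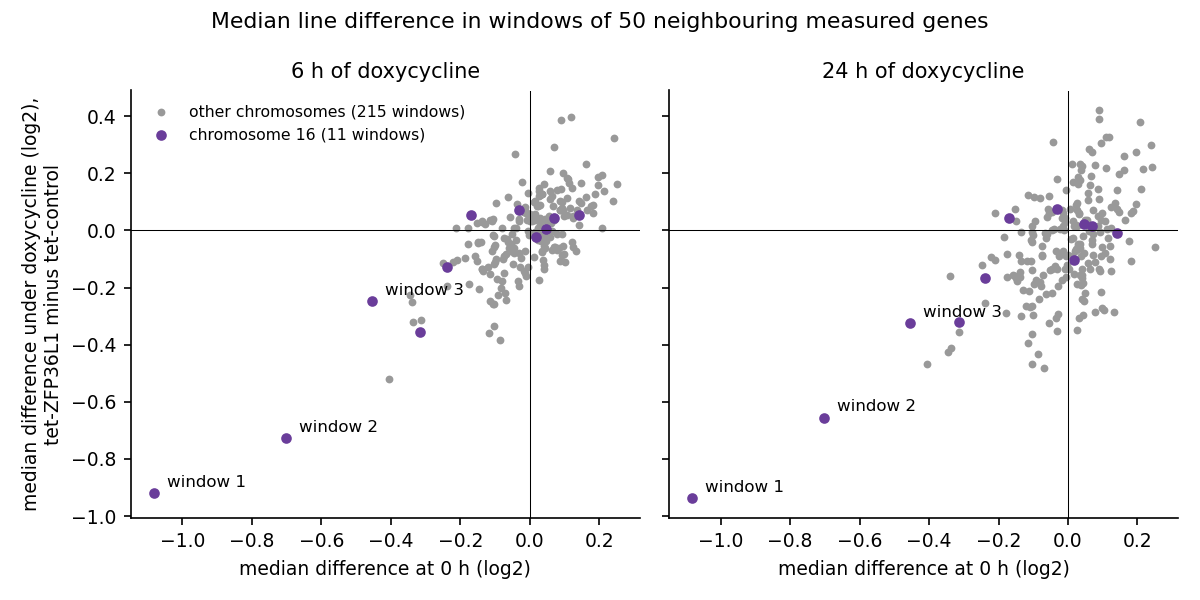
Median line difference (log2, tet-ZFP36L1 minus tet-control) of each window of 50 neighbouring measured genes at 0 h (x axis) and at 6 h or 24 h of doxycycline (y axis). Purple points are the windows of chromosome 16 in order along it, grey points all others; windows 1 and 2 lie apart from the rest at all 3 times.

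Known targets of the ZFP36 family, taken from a list of 55, had 44 measured members. By the fit 20 were lower and 7 higher in tet-ZFP36L1 under doxycycline, against 14.7% and 11.4% of all genes, and 11 were lower by the induction term, against 0.436%. The median difference was 0.52 at 0 h, -0.58 at 6 h and -0.30 at 24 h, so the list started above tet-control and was below it under doxycycline. At both times 7 members were 2-fold lower, of which 6 were within 2-fold at 0 h, and 6 were 2-fold higher, of which 4 were already higher at 0 h. Of all genes 3.78% were 2-fold lower and 3.98% were 2-fold higher at both times, and counts of the lists below are read against these shares too. CDKN1A, the cell cycle inhibitor p21, was at 83.1, 20.6 and 22.8 CPM in tet-ZFP36L1, against 48.8, 74.1 and 57.2 CPM in tet-control. TNFAIP3, the NF-kB inhibitor A20, was on the other side at all times, at 153.0, 312.8 and 216.6 CPM in tet-ZFP36L1, against 26.6, 75.2 and 24.9 CPM in tet-control. CSF3, the granulocyte growth factor, was at 38.1, 4.199 and 6.77 CPM in tet-ZFP36L1, against 0.347, 0.428 and 0.607 CPM in tet-control.

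Cytokines and chemokines driven by NF-kB overlapped this list. Of 16 measured, 9 were 2-fold higher and 2 were 2-fold lower in tet-ZFP36L1 at 0 h, against 4.9% and 2.76% of all genes. At both doxycycline times 2 were 2-fold higher and 1 was lower, against 3.98% and 3.78%. The median was 1.29 at 0 h, -0.39 at 6 h and 0.40 at 24 h. CCL20, a chemokine for CCR6-bearing cells, was the lower one, at 1.37, 0.778 and 0.641 CPM in tet-ZFP36L1, against 5.46, 15.8 and 4.86 CPM in tet-control. Among 24 NF-kB subunits and feedback genes 4 were lower and 4 higher by the fit, against 14.7% and 11.4% of all genes. The list of 14 TNF receptor superfamily members, ligands included, had 5 lower and 2 higher, read against the same shares. CD70, a TNF family ligand, was at 70.0, 24.5 and 28.9 CPM in tet-ZFP36L1, against 106.2, 79.7 and 108.2 CPM in tet-control. TNFRSF10A, a TRAIL receptor, and TNFRSF12A, the TWEAK receptor, had differences of -1.74 and -1.02 at 6 h and of -1.32 and -1.31 at 24 h, against -0.49 and -0.57 at 0 h.

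Of 36 extracellular matrix genes measured, 12 were 2-fold higher at both times, against 3.98% of all genes, and all 12 were already higher at 0 h. A further 4 were lower, against 3.78%, and 3 of them were already so. FN1, fibronectin, was at 9908, 11892 and 2657 CPM in tet-ZFP36L1, against 381.9, 716.6 and 392.1 CPM in tet-control. TNC, tenascin C, was at 110.8, 400.5 and 61.1 CPM in tet-ZFP36L1, against 4.32, 10.3 and 6.43 CPM in tet-control. EFEMP1 and LAMA3, the fibulin 3 and laminin alpha 3 genes, had differences of 4.44 and 4.15 at 0 h, 4.30 and 3.66 at 6 h, and 3.54 and 3.47 at 24 h. The induction term was past an adjusted p of 0.05 for 0 members by edgeR and by DESeq2, with 3 on the lower side and 0 on the higher side at an unadjusted p below 0.05 in edgeR.

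The urokinase and metalloproteinase list had 14 measured members, of which 3 were lower by the induction term, against 0.436% of all genes. All 5 of its members 2-fold higher at both times, among them SERPINB2 and MMP16, were already higher at 0 h, and 3 of the 4 lower ones, among them PLAU and MMP1, were within 2-fold at 0 h. Of 14 integrins, 6 were lower and 3 higher by the fit, against 14.7% and 11.4% of all genes. ITGA2, a collagen receptor subunit, was at 160.2, 135.1 and 67.7 CPM in tet-ZFP36L1, against 18.2, 33.4 and 14.5 CPM in tet-control. ITGAV, the alpha V subunit, was lower at 201.9, 184.4 and 117.1 CPM in tet-ZFP36L1, against 362.6, 425.1 and 267.5 CPM in tet-control. ITGA11, a further collagen receptor subunit, had differences of -1.17, -1.58 and -2.99.

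Among 12 measured regulators of epithelial-mesenchymal transition and cadherins, 2 were 2-fold higher at both times, both already higher at 0 h, and 3 were lower. The shares of all genes were 3.98% and 3.78%. SNAI2, the transcription factor Slug, was at 32.9, 23.8 and 18.4 CPM in tet-ZFP36L1, against 0.695, 0.535 and 0.506 CPM in tet-control. CDH13, T-cadherin, was at 16.6, 17.8 and 12.8 CPM in tet-ZFP36L1, against 0.199, 0.482 and 0.101 CPM in tet-control. OCLN, occludin, was lower with CLDN1, at 30.8, 13.4 and 19.7 CPM in tet-ZFP36L1, against 49.9, 43.2 and 48.6 CPM in tet-control. These levels place Slug and T-cadherin among the genes that set the lines apart before doxycycline.

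Of 21 TGF-beta ligands, SMADs and ID genes, 6 were lower and 5 higher by the fit, against 14.7% and 11.4% of all genes. INHBA, the activin A subunit, was at 83.9, 32.5 and 20.3 CPM in tet-ZFP36L1, against 46.3, 92.0 and 52.8 CPM in tet-control, with a difference of 0.85 at 0 h and -1.49 and -1.36 under doxycycline. FST, the activin antagonist follistatin, was 2-fold higher throughout, and BMP6 and ID4 were 2-fold lower throughout, with 6 h differences of 3.79, -2.55 and -1.35. JAG1, a Notch ligand, and MAML2, a Notch co-activator, were the 2 of 9 Notch genes apart. Both were higher, against 3.98% of all genes, and already so at 0 h. Of 33 axon guidance genes, 6 were 2-fold lower and 6 higher at both times, against 3.78% and 3.98% of all genes. At 0 h 4 and 5 of them were already so. SEMA3C, a secreted semaphorin, was at 116.6, 50.3 and 39.6 CPM in tet-ZFP36L1, against 272.3, 281.4 and 244.1 CPM in tet-control.

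Of 8 measured EGF receptors and ligands, 3 were lower and 1 higher by the fit, against 14.7% and 11.4% of all genes, and 2 of the 3, HBEGF and NRG1, were 2-fold lower at both times. NRG1, neuregulin 1, was at 26.03, 22.5 and 11.3 CPM in tet-ZFP36L1, against 19.6, 53.2 and 26.8 CPM in tet-control. Of 24 immediate early genes, 8 were lower and 6 higher, both above those shares, and at both times 3 were 2-fold lower and 3 were 2-fold higher. KLF6 and KLF2, Krüppel-like factors, and SPRY4, an inhibitor of receptor tyrosine kinase signalling, had 6 h differences of -1.27, -1.30 and -1.64 and 0 h differences of 0.01, -0.15 and -0.91. EGR1, an early response transcription factor, was higher, at 19.5, 56.2 and 60.6 CPM in tet-ZFP36L1, against 18.8, 17.4 and 25.7 CPM in tet-control.

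Interferon-stimulated genes were higher in tet-ZFP36L1, mostly at 24 h. Of 40 measured, 25 were higher and 1 lower by the fit, against 11.4% and 14.7% of all genes, and the median difference was 0.39 at 0 h, 0.51 at 6 h and 1.55 at 24 h. At both times 11 were 2-fold higher, 5 already so at 0 h and 6 within 2-fold. OAS2, an antiviral oligoadenylate synthetase, was at 7.02, 5.13 and 34.3 CPM in tet-ZFP36L1, against 1.39, 0.856 and 1.52 CPM in tet-control. GBP1, a guanylate-binding protein, was at 11.98, 52.98 and 56.5 CPM in tet-ZFP36L1, against 9.73, 15.6 and 11.1 CPM in tet-control. OASL was at 1.13, 1.14 and 59.6 CPM in tet-ZFP36L1, against 0.794, 0 and 0.607 CPM in tet-control, so its place among the genes apart at 6 h rests on a count of 0 in tet-control. Of 21 genes of MHC class I presentation 6 were higher and 1 lower, against the same shares, and 3 were 2-fold higher at both times. They were HLA-E, HLA-F and NLRC5, an activator of class I transcription. HLA-E was at 230.7, 266.8 and 334.4 CPM in tet-ZFP36L1, against 135.3, 117.0 and 127.0 CPM in tet-control. The 24 h values come from the library with the highest TMM factor.

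Of 46 G2/M genes 10 were lower by the edgeR fit and 0 higher, against 14.7% and 11.4% of all genes (15 and 0 at an unadjusted p below 0.05, and 9 and 0 by DESeq2), none was 2-fold apart at both times, and the median difference was 0.17 at 0 h, 0.11 at 6 h and -0.84 at 24 h. Of 39 G1/S and E2F target genes 13 were lower and 0 higher by edgeR, against the same shares (20 and 0 unadjusted, 9 and 0 by DESeq2). CCNE2, cyclin E2, was at 30.1, 17.6 and 15.8 CPM in tet-ZFP36L1, against 29.5, 37.6 and 34.4 CPM in tet-control. Of 20 glycolysis genes 4 were lower and 1 higher, against the same shares. HK2, hexokinase 2, was at 78.0, 46.9 and 30.1 CPM in tet-ZFP36L1, against 60.3, 143.2 and 65.3 CPM in tet-control. PFKP, a phosphofructokinase, was at 173.1, 90.9 and 63.9 CPM in tet-ZFP36L1, against 225.1, 250.6 and 209.4 CPM in tet-control.

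Of 27 hypoxia genes 6 were lower and 4 higher by the fit, against 14.7% and 11.4% of all genes. ANGPTL4 and PFKFB3 were the 2 that were 2-fold lower at both times, and both were already lower at 0 h. Against the same shares, 4 of 24 p53 targets were lower and 5 higher, and 6 of 26 integrated stress response targets were lower and 2 higher. Of 20 unfolded protein response chaperones 7 were lower and 0 higher by edgeR, read against the same shares (11 and 1 at an unadjusted p below 0.05, 7 and 0 by DESeq2). MANF, a secreted endoplasmic reticulum stress factor, was at 132.4, 72.5 and 43.3 CPM in tet-ZFP36L1, against 166.7, 172.8 and 159.0 CPM in tet-control. The amino acid transporter SLC7A5 was at 227.9, 288.3 and 62.0 CPM in tet-ZFP36L1, against 329.5, 677.3 and 304.7 CPM in tet-control. Of 23 cholesterol synthesis genes 5 were lower and 0 higher by edgeR, read against the same shares (10 and 0 unadjusted, 4 and 0 by DESeq2). Of 13 mitochondrially encoded mRNAs 0 were past an adjusted p of 0.05 by edgeR or DESeq2, with 0 lower and 1 higher at an unadjusted p below 0.05 in edgeR.

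Of 40 genes of the CCR4-NOT complex and mRNA decay, 3 were lower and 4 higher by the fit, against 14.7% and 11.4% of all genes, with medians of 0.04, 0.01 and -0.06, and 33 passed in neither direction. The 2 members 2-fold higher at both times, the CCR4-NOT partner BTG1 and the decapping protein DCP1B, were already higher at 0 h. Of 18 AU-rich element binding proteins 2 were lower and 2 higher by the fit, near the same shares of all genes. The members apart were ZFP36L1, ZFP36L2 and the endonuclease ZC3H12A. ZC3H12A was at 38.01, 48.01 and 74.6 CPM in tet-ZFP36L1, against 18.7, 14.4 and 19.6 CPM in tet-control. Of 29 housekeeping genes 7 were lower and 0 higher by edgeR, read against the same shares (12 and 2 at an unadjusted p below 0.05, 8 and 1 by DESeq2). Their medians were -0.06, -0.19 and -0.63. SDHA, a subunit of succinate dehydrogenase that is often used as a standard, was 2-fold lower at every time, at 201.7, 160.8 and 153.5 CPM in tet-ZFP36L1, against 563.1, 498.2 and 546.0 CPM in tet-control.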

How the data were processed

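Total RNA of 6 J82 libraries, 1 for each of 2 lines and 3 times, was sequenced on a BGISEQ-500, per the labels. Per the submitters' processing notes the tools were kallisto and DESeq2 with the build hg19. Their versions and strand settings are not given in the sources used here. The deposited table of each library lists 196354 transcripts with estimated counts, which need not be whole, and TPM values, which the authors' tool scales to transcript length and to 1000000 per library.

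Of these transcripts 181857 matched GENCODE 29 on GRCh38 by identifier, and 5.12% to 5.47% of the counts per library did not match and were left out. Positions and sequences are those of GRCh38, without conversion of coordinates. Gene values are rounded sums of the estimated counts. Scaling used TMM factors over 6 libraries, from genes averaging 10 counts or more (edgeR 4.0.16, R 4.3.3), and genes were kept at a mean of at least 50 counts over the 4 doxycycline libraries. The main fit was edgeR's quasi-likelihood test of line with time as a term, and the induction term was tested over 6 libraries with time and line as terms. Each has 1 residual degree of freedom, and p-values were adjusted by Benjamini-Hochberg over 11920 genes. The spread of each gene was moderated toward that of all genes, with median prior degrees of freedom of 12.0 for the line fit and 12.3 for the induction fit. The labels carry no replicate numbers, so libraries are paired by time alone.

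Counting intervals are 95% intervals by the delta method. Since the reads carry no molecular identifiers, they are not independent molecules, and the intervals cover counting error only. In simulated counts with planted changes on 11920 genes, the line fit recovered 58 of 89 genes at 2-fold and 111 of 111 at 4-fold, and called 12 of 11720 unchanged genes. The simulations of both fits gave every gene the common dispersion of the fit itself, 0.031. Apart from planted changes, each gene had the same scaled mean in every library. They hold no variation between cultures, so they do not give the rate of false calls in the real libraries.

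The comparison, gene lists and gene-naming rule were chosen with earlier results of these data known, so no pattern given here is independent support for them. Named genes are the ZFP36 family, the 12 leading protein-coding genes each way within 2-fold at 0 h, the 8 leading each way already apart, up to 6 each way that were 2-fold apart the opposite way at 0 h, the 5 leading each way that were apart at 0 h only, and up to 4 of each of 27 lists. Genes were ranked by the smaller of their 2 doxycycline differences. A few genes that the rule names are not reported here. Of the other 113, 4 shared at least 50% of their 31-base words with another gene and are not described. The 3' UTR of a gene is that of its transcript with the highest mean TPM, with at least 50 bases. Alternatives were DESeq2 1.42.0 with its size factors, plain CPM, the deposited TPM, other pseudocounts, other count minimums, other thresholds, each time alone and each library left out. Python 3.11.15 with numpy 2.4.6, pandas 2.3.3, scipy 1.17.1 and matplotlib 3.10.9 made the tables and figures.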

Additional observations from a re-analysis of the deposited data

Results flagged for a closer look

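For 29 of the named genes the line difference under doxycycline departed from that at 0 h by the test of that departure itself, the induction term of the edgeR quasi-likelihood fit over all 6 libraries, at an adjusted p below 0.05. Values are fitted log2 departures, tet-ZFP36L1 minus tet-control under doxycycline less the same at 0 h, and the 0 h side rests on 1 library per line. Many of these genes were named for their doxycycline differences, so they are not an unselected sample.

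On the lower side, among genes that were 2-fold lower under doxycycline and within 2-fold at 0 h, the departure was -2.58 for PLAU, -4.08 for MAP3K14, -1.64 for FGFRL1, -1.72 for SLC4A7 and -1.71 for MICB. List members of this class had -2.35 (CDKN1A), -2.30 (INHBA), -1.74 (HK2), -1.65 (NRG1) and -2.37 (ZFP36L2). Genes that had been 2-fold higher at 0 h had -3.54 (PHLDA2), -2.59 (HPCAL1), -2.05 (CXCL1), -1.56 (MAP1B) and -1.93 (SLC2A1). GDF15, already lower at 0 h, had -2.32.

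On the higher side, ZFP36L1 had a departure of 3.95, KDM4A 3.53, GLE1 3.54, MAST2 2.81, KDM3B 2.61, KNL1 2.49, STK4 2.44 and DPYD 2.08. ROBO2 had 6.66 and DLG3 5.22, the first already 2-fold higher at 0 h and the second 2-fold lower there. IARS2 at 2.55 and ZNF275 at 5.05 came from a low tet-ZFP36L1 level at 0 h and were close to tet-control under doxycycline. OASL had 6.12, a fitted value that rests mostly on the tet-ZFP36L1 24 h library, with 1302 counts against 12 in tet-control. At 6 h the counts were 22 against 0, and at 0 h 23 against 16. The value also depends on the prior count, so it is no bound on a fold.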

How the results depend on the processing

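With 1 library per line and time, how cultures of a line vary was not measured, and differences near 2-fold in genes of few counts are limited by depth. The median line difference of all genes at 24 h was -0.045 with TMM, 0.138 with plain CPM and 0.144 with the deposited TPM, so 24 h differences are relative to that shift. At 6 h the same medians were -0.012, 0.035 and 0.031. The deposited TPM gave 308 lower and 485 higher genes at both times and plain CPM 340 and 537.

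A pseudocount of 5 CPM left 256 lower and 238 higher genes, and a mean count of at least 200 left 267 higher genes with 23.6% of the lower ones already lower at 0 h. Taking 6 h alone gave 726 lower genes, and 60.9% of the higher ones were already higher; 24 h alone gave 984 and 1064, with 17.3% and 39.3% already apart. A 1.5-fold threshold throughout gave 1237 and 1055, with 60.1% of the higher ones already higher. Plain CPM and the deposited TPM put 66.1% and 63.5% of the higher genes there. Of the settings added after seeing the data, a 0 h threshold of 1.5-fold gave 48.1% and 85.3%, and asking also for 2-fold beyond the 0 h difference left 148 lower and 53 higher genes, with 3.38% and 16.98% already apart. Protein-coding genes alone and leaving out chromosome 16 moved these 4 values by less than 1.5 times or the spread allowed.

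For the line fit, plain scaling gave 1149 lower genes. Without the replicate block, that is without the time term, it gave 743 lower and 506 higher. Leaving out each library in turn, also without the time term, gave 428 to 1237 lower and 359 to 945 higher, the lowest being 428 without tet-control 6 h and 359 without tet-ZFP36L1 24 h. The others were 469 lower without tet-ZFP36L1 24 h, 577 and 488 without tet-control 24 h, and 431 higher without tet-control 6 h. In these 3-library fits the lone library of a line is assumed to vary like the others. The induction term gave 2 and 11 with plain scaling, against 52 and 23, and 35 and 21 with DESeq2 size factors.

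For the AU-rich core, the longest annotated 3' UTR gave 66.8% and 3' UTRs of 1000 to 3000 bases 65.8% for lower genes within 2-fold at 0 h. For those already lower, 3 copies of ATTTA gave 40.9% and the length range 48.1%. Over 109 named genes and 5 other scales, 29 values were no longer 2-fold at both times and 5 had another sign than the main one, all but 1 of these near 0 in IARS2, PHLPP1, RPGR and ZNF275. Over 27 lists 5 medians changed sign, in the CCR4-NOT, integrated stress response and NF-kB feedback lists. The CCR4-NOT and integrated stress response medians are within 0.1 of 0 at 0, 6 and 24 h. Those of the NF-kB feedback list were -0.33 at 6 h and 0.38 at 24 h.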
